A study of Mus musculus with 165 samples.

Results

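The genes described here encode the eukaryotic translation initiation and elongation factors, together with the enzymes that modify them and carry their names. They were chosen by symbol, as every row of the gene table named Eif1 to Eif6, Eef1 or Eef2, without the Eif2ak kinases and without rows named as pseudogenes. The table held 36255 genes, of which 84 matched the pattern. After 13 pseudogene rows and 4 kinase rows were set aside, 67 members remained. The pattern uses names alone, although the group was chosen with earlier results of these data known. They comprised 13 factors of the ternary complex and start codon selection, 5 subunits of eIF2B and 14 genes for subunits of eIF3. There were 12 cap-binding, scaffold and helicase factors of the eIF4 group, 4 proteins that bind eIF4E and 3 genes of eIF5A and eIF6. The rest were 7 genes grouped as elongation factors, 7 kinases and methyltransferases that modify elongation factors, and 2 further genes.

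Translation begins when eIF4E binds the cap of an mRNA and, with the scaffold eIF4G and the helicase eIF4A, recruits the small ribosomal subunit carrying eIF3 and a ternary complex of eIF2, GTP and initiator tRNA. eIF1, eIF1A and eIF5 guide the choice of the start codon, and eIF2B recharges eIF2 with GTP. During elongation eEF1A brings each aminoacyl-tRNA to the ribosome, the eEF1B subunits recharge eEF1A, and eEF2 moves the ribosome to the next codon. The 4E-binding proteins hold eIF4E away from eIF4G and are released by mTORC1 kinase activity, whereas the kinase eEF2K switches eEF2 off. Many mRNAs of this machinery, those of the ribosomal proteins and elongation factors in particular, start with a run of pyrimidines (the 5′ TOP) through which mTORC1 controls their translation, and neutrophil maturation is accompanied by a fall in biosynthetic activity.

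RNA-Seq was performed on PUER cells, a mouse myeloid progenitor line that lacks its own PU.1 (the product of Spi1, a transcription factor needed for myeloid development) and carries instead a PU.1 protein joined to the hormone-binding part of the estrogen receptor. 4-hydroxy-tamoxifen (OHT) activates the fusion. All groups shared this genotype and this line. Undifferentiated cells were grown in IL3 without OHT (3 libraries). The IL3-OHT cells stayed in IL3 at 5 ng/mL, received 200 nM OHT and followed a macrophage differentiation until 168 h (81 libraries). GCSF 0h cells had been held for 48 h in GCSF at 10 ng/mL without IL3 and without OHT (3 libraries), and the GCSF-OHT cells then received 100 nM OHT and followed a neutrophil differentiation until 168 h (78 libraries). The titles of the GCSF 0h libraries mention OHT, but their treatment labels place them before its addition, and they were taken as such. Because OHT dose and pre-treatment differed along with the cytokine, these cannot be told apart in any comparison of the 2 conditions. At GCSF 0h the addition of GCSF, the removal of IL3 and the 48 h in culture cannot be told apart. GCSF pre-treatment below means all of these together. Each time point had a plate of its own, so that plate and time point cannot be told apart either, and cells were detached with trypsin at time points after 24 h. No cells without OHT were sampled beside the OHT time points. OHT and time in culture therefore cannot be told apart, and an effect of OHT below means the change since OHT was added.

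The libraries held 14600246 to 33147945 assigned reads, with a median of 21960878. There were 56 combinations of condition and time point, and 53 of these were measured in 3 libraries and the remaining 3 in 2. The replicates were wells of 1 line, so the p-values measure the spread between these wells. The count of Itgam, the integrin subunit Cd11b, rose from a mean of 576 in undifferentiated cells to 7612 in IL3-OHT and 4154 in GCSF-OHT cells at 168 h, whereas the macrophage receptor Csf1r stayed near 0 in IL3-OHT cells (3.6 to 6.6) and was at 13.8 to 18.3 in GCSF-OHT cells. The summed level of 7 neutrophil markers was 662753 to 702851 in GCSF-OHT cells at 168 h and 201878 to 229643 in IL3-OHT cells, a sum made up mostly of S100a8, S100a9 and Lcn2. Ltf was lower in GCSF-OHT than in IL3-OHT cells (means of 56.5 and 210.6), Cebpe overlapped (1198 and 1114), and Elane went from 108129 in undifferentiated to 66130 in GCSF-OHT cells. The 7 macrophage markers summed to 16034 to 18827 in IL3-OHT and to 8390 to 9264 in GCSF-OHT cells, but Ccr2, like Csf1r, was higher in GCSF-OHT cells (means of 3225 and 1667). Of 8 markers of other blood lineages, 5 or 6 were at 3 reads or fewer in every library of these groups. In such bulk samples fewer cells of a type and less RNA per cell cannot be told apart.

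A normalized count is a read count divided by the size factor of its library, and the values below are normalized counts unless another scale is named. Changes are differences on the log2(normalized count + 1) scale with their standard errors, tested with limma across all 17414 genes that reached a normalized count of 5 in at least 1 library. A gene was called higher or lower when its Benjamini-Hochberg adjusted p was under 0.05 and its change exceeded 0.58 on the log2 scale in size, about 1.5-fold. Of the 67 members, 62 were tested and 59 had a mean of at least 100 over all libraries. The 5 below the filter were Eif4e1b, Eif5a2, Eef1a2, Eif2s3y and Eif4a3l2, which left Eef1a1, Eif5a and Eif2s3x as the only paralogs of their pairs with more than trace levels. Eif4a3l1 passed the filter with a highest value of 7.2 and is not described further.

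The machinery was lowered far more in the neutrophil than in the macrophage differentiation. At 168 h in GCSF conditions 31 of 62 tested members (50.0%) were lower than in undifferentiated cells, against 23.6% of all genes tested, and 3 were higher, against 15.5%. The median change of the members was -0.59, beside -0.11 over all genes, and 50 of 62 changes were negative. At 168 h in IL3 conditions 6 members (9.68%) were lower, against 15.2% of all genes, and 1 was higher, against 10.2%, with a median of -0.13 beside -0.03. GCSF pre-treatment without OHT lowered 13 members (21.0%), a share near the 20.7% of all genes, and raised 2, against 13.0% of all genes. The count of 2 was 4 with edgeR and 1 with upper-quartile scaling. All 3 comparisons use the same 3 undifferentiated libraries. Between GCSF 0h and 168 h of OHT, 9 members (14.5%) were lower and 2 were higher, beside 12.6% and 12.1% of all genes.

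**Figure D1:**
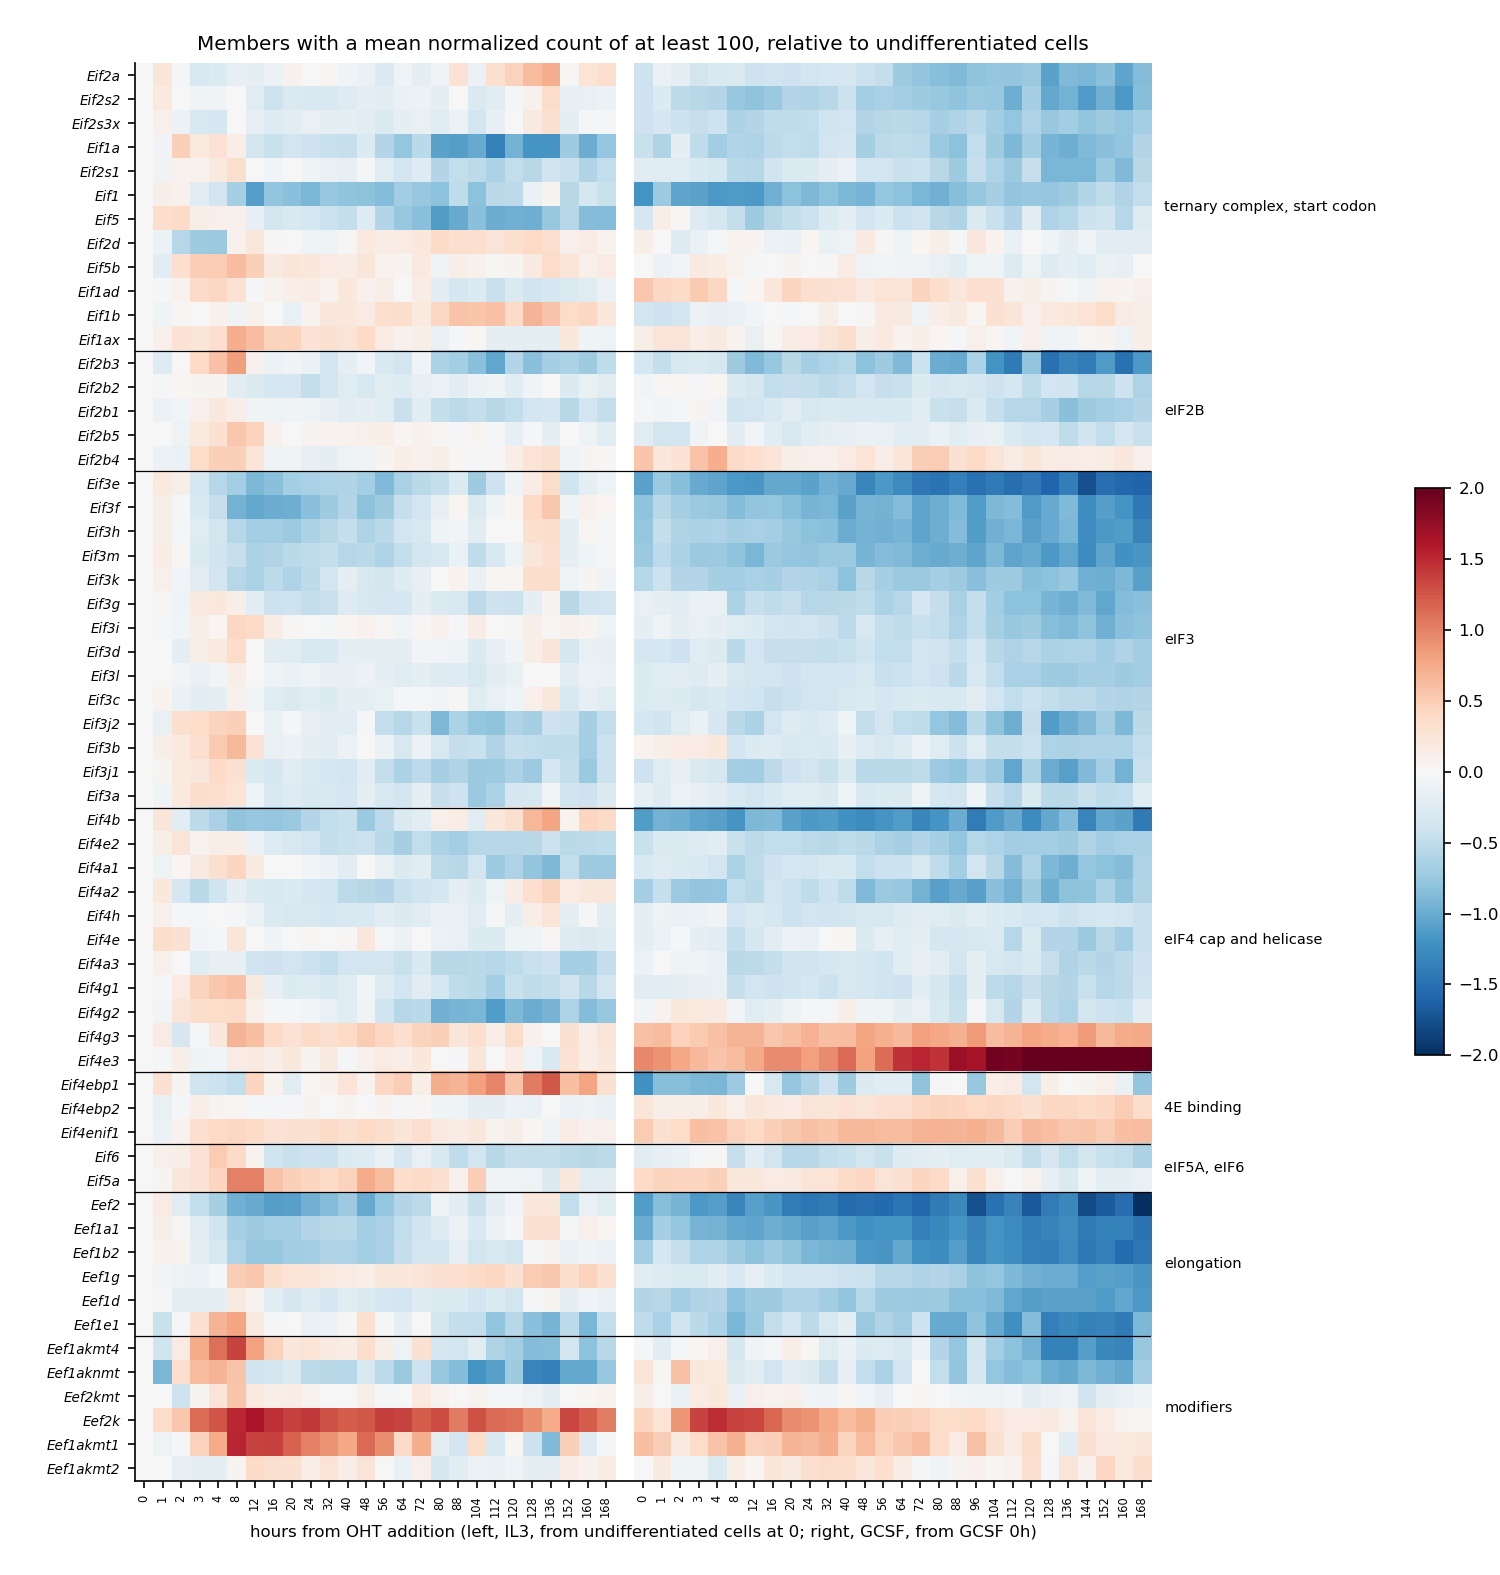
Heatmap of the 59 members whose normalized count averaged 100 or more, grouped by role (rows), over the time points of IL3 and GCSF conditions (columns, in h); color gives the log2 difference from undifferentiated cells, limited to 2 in each direction, which cuts off late values of Eif4e3 and the last of Eef2 in GCSF conditions. Eef2, Eef1a1, Eef1b2, Eif3e and Eif3f are blue through GCSF conditions and, in IL3 conditions, most strongly between 12 h and 72 h.

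The share of all normalized counts that fell on the members followed the same course. It was 2.69% to 2.79% in undifferentiated cells, 2.05% to 2.08% at GCSF 0h, 2.46% to 2.54% at 168 h in IL3 conditions and 1.37% to 1.41% at 168 h in GCSF conditions, and the 4 ranges did not overlap. Eef1a1 and Eef2 alone accounted for 1.55% to 1.62% in undifferentiated cells and for 0.514% to 0.551% at 168 h in GCSF conditions. S100a8 and S100a9, which encode the abundant neutrophil protein calprotectin, moved in the other direction, from 0.381% to 0.421% in undifferentiated cells to 2.09% to 2.21% at 168 h in GCSF conditions, and the part of this shift in the members' change was not tested.

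The promoters of 50 members were found in the RefSeq windows of GRCm38.p6, each of 300 bases from 250 before to 50 after an annotated start. The E-box CACGTG, which reads the same on both strands and is bound by Myc among other factors, was present in the windows of 14 of these 50 members (28.0%), compared with 8.09% of all genes with a window. The 14 were Eef2, Eef2k, Eef1akmt4, Eef1aknmt, Eif1b, Eif3a, Eif3f, Eif3k, Eif4a1, Eif4e, Eif4g1, Eif4h, Eif5a and Eif5a2. The ETS core AGGAAGT, which PU.1 recognizes with flanking bases, was found on either strand in 9 members (18%, compared with 10.7% of genes). The C/EBP-ATF composite TGATGNAAT was found on either strand in none, and in 1.08% of genes. A run of 8 or more C or T bases between 10 bases before and 40 bases after the start, a search added after the values had been seen, was found on the sense strand in 16 members (32.0%, compared with 19.9% of genes). The reverse complement of AGGAAGT contains pyrimidines in a row, so these searches can overlap in part, and a match does not show a bound site or a TOP start. Of the 5 stretches printed, Eef2, Eif3f and Eif3k fell with the elongation factors and hold both the E-box and a pyrimidine run, Eef1a1 fell with them and holds a run without the E-box, and Eef2k did not fall with them. Eef2k has 3 windows, of which the stretch printed holds the E-box without a run, and another holds a run. Each stretch covers 70 bases before the start and 22 from it, 5′ to 3′ on the strand of the gene, and capitals mark CACGTG and the pyrimidine runs.
Eef2, chr10:81176561-81176652, plus strand: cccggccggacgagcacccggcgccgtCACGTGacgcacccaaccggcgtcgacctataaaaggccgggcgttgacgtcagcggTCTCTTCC
Eif3f, chr7:108934345-108934436, plus strand: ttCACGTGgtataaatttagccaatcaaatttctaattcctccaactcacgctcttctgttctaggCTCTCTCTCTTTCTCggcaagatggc
Eif3k, chr7:28981867-28981958, minus strand: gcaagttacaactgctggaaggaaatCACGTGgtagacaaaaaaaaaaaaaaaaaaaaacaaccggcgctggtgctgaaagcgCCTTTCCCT
Eef1a1, chr9:78481703-78481794, minus strand: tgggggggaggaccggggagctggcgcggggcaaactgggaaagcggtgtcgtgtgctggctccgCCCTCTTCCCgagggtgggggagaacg
Eef2k, chr7:120842761-120842852, plus strand: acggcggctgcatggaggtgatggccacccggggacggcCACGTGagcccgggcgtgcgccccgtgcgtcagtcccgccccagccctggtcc

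Genes grouped as elongation factors showed the largest and most uniform loss in GCSF conditions. The group includes Eef1e1, which encodes a scaffold protein of the aminoacyl-tRNA synthetase complex rather than an elongation factor. All 6 that were tested were lower at 168 h of GCSF-OHT than in undifferentiated cells, against 23.6% of all genes, with a median change of -1.30, and 4 of them were already lower at GCSF 0h, against 20.7%. None of the 6 passed the test at 168 h in IL3 conditions, where the median was -0.12. Per kilobase of merged exons, Eef1a1 was the most abundant member in undifferentiated cells at 96210, followed by Eef2 at 39417.

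Eef2, the translocase of elongation (ENSMUSG00000034994, chr10:81176631-81182498 of GRCm38, plus strand), was at 128837, 131623 and 132604 in undifferentiated cells. At GCSF 0h it was at 62363, 60174 and 58766, and at 168 h of GCSF-OHT at 33028, 31508 and 31085. Its values at 168 h of IL3-OHT were 114842, 105643 and 112442. The 4 groups did not overlap, and the lowest values were those at the end of the neutrophil differentiation. The change was -1.12 ± 0.07 at GCSF 0h (limma adjusted p = 2.21e-30), -2.04 ± 0.07 at 168 h of GCSF-OHT (adjusted p = 1.03e-53) and -0.24 ± 0.07 at 168 h of IL3-OHT, which was below the size required for a call (adjusted p = 0.00163). From GCSF 0h to 168 h it fell by 0.92 (adjusted p = 3.78e-24).

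Under IL3 the level of Eef2 did not simply persist. It stood at a mean of 146081 at 1 h, 61106 at 16 h, 151941 at 128 h and 151626 at 136 h, before values of 92787, 94489 and 93015 at 152 h. Over the windows, its lowest, median and highest values in IL3-OHT cells were 55974, 69302 and 91510 at 12 to 72 h and 89280, 115993 and 164422 at 80 to 168 h. The windows overlapped only slightly, and the later was higher by 0.72 ± 0.02 (limma adjusted p = 7.11e-59). In GCSF-OHT cells the corresponding values of Eef2 were 42036, 47933 and 66696, and then 31085, 48556 and 55864, so the recovery seen under IL3 was not found.

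Eef1a1, the main carrier of aminoacyl-tRNA (ENSMUSG00000037742, chr9:78478449-78489151, minus strand), ran closely alongside. It was at 230981, 244330 and 244243 in undifferentiated cells, 124145, 115939 and 120635 at GCSF 0h, and 85962, 89843 and 81415 at 168 h of GCSF-OHT. At 168 h of IL3-OHT it was at 234146, 255869 and 250432, overlapping the undifferentiated values, whereas both GCSF groups lay far below. The change was -1.0 ± 0.06 at GCSF 0h (limma adjusted p = 8.89e-33), -1.48 ± 0.06 at 168 h of GCSF-OHT (adjusted p = 3.37e-48) and 0.04 at 168 h of IL3-OHT (adjusted p = 0.586). Eef1a1 has many processed pseudogenes, among which reads can be split, so its absolute level is uncertain.

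The subunits that recharge eEF1A fell in GCSF conditions as well. Eef1b2, the catalytic subunit eEF1B alpha, was at 11313, 12194 and 12619 in undifferentiated cells, at 10937, 11383 and 11119 at 168 h of IL3-OHT and at 4623, 4693 and 3970 at 168 h of GCSF-OHT. The GCSF-OHT values lay below all others, with a change of -1.45 ± 0.07 (limma adjusted p = 4.12e-39). Eef1d, the other exchange subunit, was at 3329, 3389 and 3102, then 2071, 2166 and 2313 at GCSF 0h, and 1474, 1476 and 1463 at 168 h of GCSF-OHT, a change of -1.15 (adjusted p = 1.93e-40).

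Eef1g, the structural subunit eEF1B gamma, departed from this order. It was at 11661, 12180 and 12100 in undifferentiated cells and at 10288, 10168 and 10535 at GCSF 0h, a change of -0.21 that was not called. It was at 17513, 17369 and 17415 at 12 h of IL3-OHT and at 15299, 14566 and 15109 at 168 h, above undifferentiated cells without overlap, although the change of 0.32 at 168 h was below the size for a call. The values at 168 h of GCSF-OHT were 5269, 5548 and 5260, the lowest of these groups. The fall of Eef1g came after OHT (-0.95 from GCSF 0h to 168 h, limma adjusted p = 6.20e-53), and the difference between the OHT effects of the 2 cytokines at 168 h, each taken from its own 0 h, was -1.27 ± 0.05 (adjusted p = 5.65e-50).

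Eef1e1, a scaffold protein of the aminoacyl-tRNA synthetase complex, had a course of its own in IL3 conditions. It was at 550, 541 and 593 in undifferentiated cells, 963, 1022 and 941 at 8 h of IL3-OHT, 683, 614 and 632 at 12 h, and 296, 308 and 283 at 136 h. The 4 groups were separate, but the 8 h and 136 h groups hold its highest and lowest IL3 means, so their separation follows from that choice. Between 8 and 12 h Eef1e1 fell by 0.60 (± 0.09, limma adjusted p = 1.19e-08), a call that was lost without replicate 2 (-0.53). The values at 168 h of GCSF-OHT were 288, 317 and 293, a change of -0.91 (adjusted p = 6.17e-17).

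**Figure D2:**
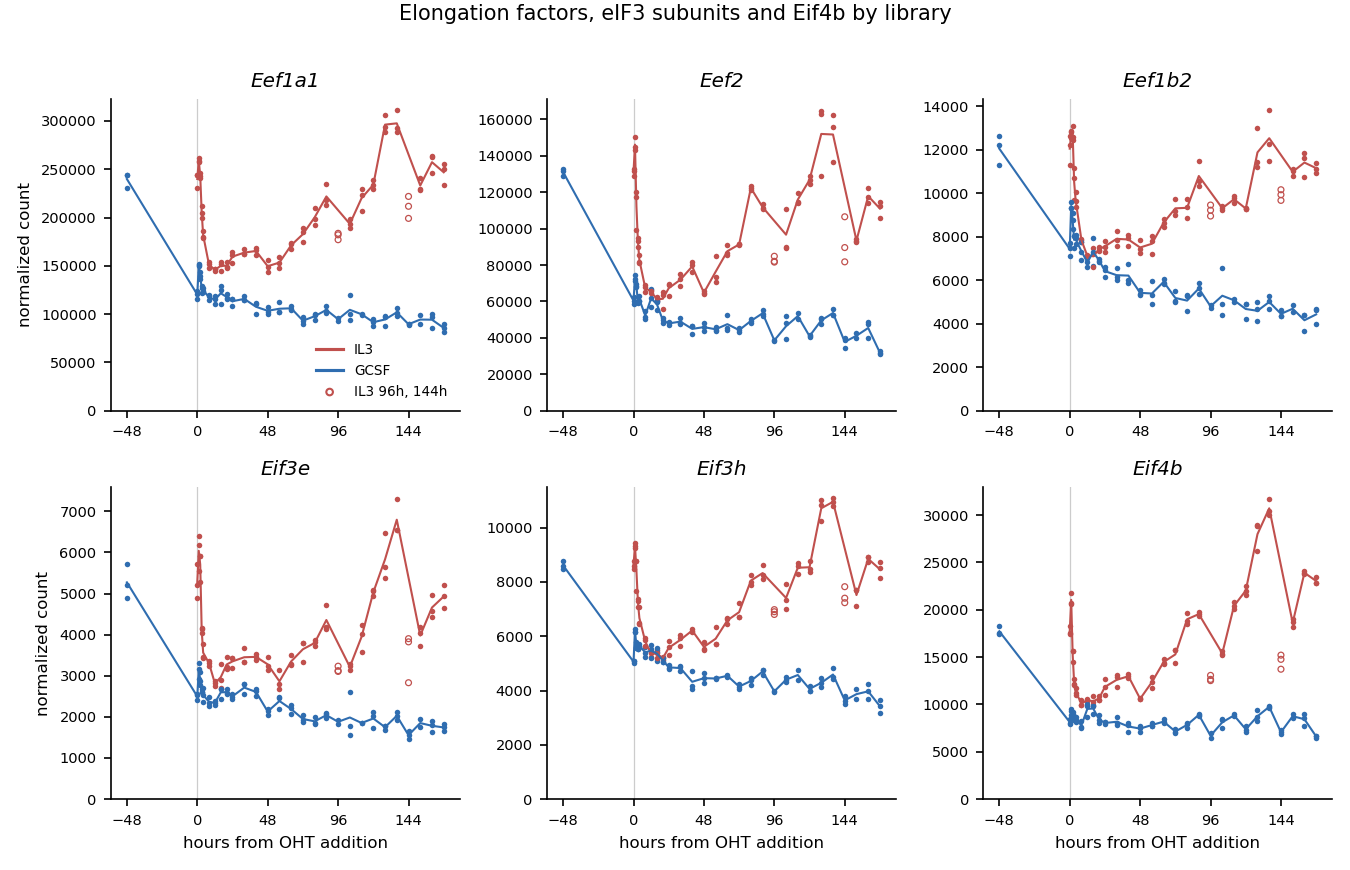
Normalized counts (y axis, from 0) of Eef1a1, Eef2, Eef1b2, Eif3e, Eif3h and Eif4b against time in h; dots are libraries, lines are means, red is IL3 and blue is GCSF, whose course begins 48 h before OHT with the undifferentiated libraries, and open circles are the IL3-OHT libraries at 96 h and 144 h, which are not in the tests. In all 6 panels the GCSF course ends below the IL3 course, whereas the IL3 course dips and climbs back before 152 h.

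The 14 genes for subunits of eIF3, the largest initiation factor and the platform between the small subunit and the mRNA, differed in how closely they followed the elongation factors. At 168 h of GCSF-OHT 10 of 14 were lower than in undifferentiated cells, against 23.6% of all genes, all 14 changes were negative, and the median was -0.76. At GCSF 0h 4 were lower, against 20.7% of all genes, namely Eif3e, Eif3f, Eif3h and Eif3m. None was called at 168 h of IL3-OHT, where the median was -0.15.

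Eif3e had the largest change (chr15:43250058-43282719, minus strand). It was at 4888, 5213 and 5712 in undifferentiated cells, 2403, 2527 and 2559 at GCSF 0h, 1749, 1828 and 1651 at 168 h of GCSF-OHT, and 4644, 5209 and 4932 at 168 h of IL3-OHT. The IL3-OHT values overlapped those of undifferentiated cells, and both GCSF groups were lower without overlap. Eif3e changed by -1.08 ± 0.08 at GCSF 0h (limma adjusted p = 2.31e-25) and by -1.59 ± 0.08 at 168 h of GCSF-OHT (adjusted p = 5.00e-39). Within IL3 conditions it was at 2861, 2757 and 2821 at 12 h and at 6555, 7290 and 6540 at 136 h, the latter above every undifferentiated library.

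Eif3f, one of the MPN-domain subunits, was at 9871, 10442 and 10006 in undifferentiated cells and at 3749, 3881 and 3577 at 168 h of GCSF-OHT, a change of -1.44 ± 0.05 (limma adjusted p = 2.13e-52). In IL3 conditions Eif3f was at 5041, 5040 and 4809 at 12 h, at 14907, 14717 and 14268 at 136 h and at 10349, 10309 and 10591 at 168 h. The 136 h libraries were the highest and the 12 h libraries the lowest of these IL3 groups, and the late window exceeded the middle window by 0.80 ± 0.02 (adjusted p = 8.52e-78). Eif3h, its MPN-domain partner, was at 8580, 8787 and 8462 in undifferentiated cells and at 3447, 3637 and 3177 at 168 h of GCSF-OHT, a change of -1.33 ± 0.04 (adjusted p = 9.46e-54).

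Eif3m and Eif3k, PCI-domain subunits like Eif3e, changed by -1.16 and -1.08 at 168 h of GCSF-OHT. Smaller falls were called for Eif3g (-0.83), Eif3i (-0.81), Eif3d (-0.70), Eif3l (-0.70) and Eif3c (-0.58). The 4 that were not called were Eif3j2 (-0.53), Eif3b (-0.49), Eif3j1 (-0.45) and Eif3a (-0.25). Eif3a and Eif3b, the large subunits on which the complex is assembled, were thus the least changed along with the loosely attached Eif3j pair. Eif3a was at 12127, 12743 and 12588 in undifferentiated cells and at 10360, 10281 and 10884 at 168 h of GCSF-OHT, which was lower without overlap but by less than the size required for a call. Eif3j1 fell between 8 and 12 h in IL3 conditions, from 746, 859 and 764 to 530, 477 and 567 (-0.59, limma adjusted p = 4.95e-06), but not without replicate 2 (-0.46).

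Among factors of the ternary complex and of start codon selection, Eif2s2 and Eif2s3x fell in GCSF conditions, and Eif5 and Eif1a fell in IL3 conditions. Of 12 tested members 3 were lower at 168 h of GCSF-OHT (median -0.38), a share near the 23.6% of all genes, and these were Eif2a (-0.87), Eif2s2 (-0.85) and Eif2s3x (-0.68). Eif2s2 and Eif2s3x encode the beta and gamma subunits of eIF2, and the product of Eif2a is an alternative initiator tRNA carrier, distinct from the alpha subunit. Eif2s1, which encodes the alpha subunit, changed by -0.55 and was not called. Eif5 and Eif1a were the 2 of 12 that were lower at 168 h of IL3-OHT (median -0.11), a share near the 15.2% of all genes.

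Eif2a was at 1289, 1273 and 1470 in undifferentiated cells, 1726, 1708 and 1657 at 168 h of IL3-OHT and 704, 718 and 787 at 168 h of GCSF-OHT. It therefore stood above the starting level in every library at 168 h of IL3-OHT and below it in every library at 168 h of GCSF-OHT. Only the fall was called, and the rise in IL3-OHT cells was not. The OHT effects, from GCSF 0h and from undifferentiated cells, differed by -0.80 at 168 h. Eif2s2 was at 3106, 3336 and 3530, then 3015, 3163 and 3017 at 168 h of IL3-OHT, and 1839, 1918 and 1782 at 168 h of GCSF-OHT. The GCSF-OHT libraries of Eif2s2 were lowest, and the other groups overlapped.

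Eif5, the GTPase activator of eIF2, was at 9558, 9963 and 10439 in undifferentiated cells and at a mean of 12973 at 2 h of IL3-OHT. It was at 4493, 4605 and 4675 at 80 h and at 5176, 5876 and 5317 at 168 h of IL3-OHT, compared with 8099, 8648 and 8247 at 168 h of GCSF-OHT. IL3-OHT cells were lowest without overlap, and the change was -0.87 ± 0.07 from undifferentiated cells (limma adjusted p = 1.47e-21). From GCSF 0h to 168 h of GCSF-OHT the change was 0.08 (adjusted p = 0.381), and the OHT effects, each taken from its own 0 h, differed by 0.95. Eif1a, which encodes eIF1A, changed by -0.78 at 168 h of IL3-OHT (adjusted p = 3.36e-17). Its paralog Eif1ax changed by -0.10 there.

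Eif1, the gatekeeper of start codon fidelity, moved in opposite directions in the 2 stages of the neutrophil differentiation. It was at 11153, 12014 and 11082 in undifferentiated cells, 4905, 4877 and 5144 at GCSF 0h, and 7732, 8631 and 7903 at 168 h of GCSF-OHT. The 3 groups were separate, with GCSF 0h lowest. Eif1 changed by -1.20 ± 0.07 at GCSF 0h (limma adjusted p = 7.39e-32) and then rose by 0.70 from GCSF 0h to 168 h (adjusted p = 2.90e-16). In IL3 conditions it was at 5429, 5458 and 5091 at 12 h, at 11374, 13214 and 11088 at 136 h, and at 8164, 8550 and 8383 at 168 h. Eif1b, its paralog, changed by 0.20 or less in size at either end state. Eif1ad, Eif1ax, Eif2d and Eif5b, the GTPase that joins the subunits, were not called in any of the 3 comparisons with undifferentiated cells.

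Of the 5 subunits of eIF2B, 3 were lower at 168 h of GCSF-OHT (median -0.59), against 23.6% of all genes, and none was called at GCSF 0h or at 168 h of IL3-OHT. Eif2b3, the partner of the catalytic subunit, was at 344, 344 and 365 in undifferentiated cells and at 167.2, 123.9 and 181.4 at 168 h of GCSF-OHT, a change of -1.17 ± 0.11 (limma adjusted p = 4.24e-18). In IL3 conditions Eif2b3 was at 602, 640 and 644 at 8 h and at 365, 384 and 368 at 12 h, a step of -0.75 (adjusted p = 6.26e-09). The groups at these times did not overlap. Eif2b2 (-0.61) and Eif2b1 (-0.59) were called by a small margin, and Eif2b5, the catalytic subunit, was not (-0.45). Eif2b4 changed by 0.09.

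The factors that open the mRNA fell into separate courses. At 168 h of GCSF-OHT 4 of 11 tested eIF4 members were lower, against 23.6% of all genes, and 2 higher, a share near the 15.5% of all genes (median -0.44). The helicase Eif4a1 and the scaffold Eif4g2 were the 2 of 11 that were lower at 168 h of IL3-OHT, a share near the 15.2% of all genes. Eif4b, the cofactor of the helicase, ran with the elongation factors.

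Eif4b (chr15:102073773-102097173, plus strand) was at 17395, 18257 and 17529 in undifferentiated cells, 8449, 8050 and 7892 at GCSF 0h and 6671, 6691 and 6503 at 168 h of GCSF-OHT. In IL3 conditions it was at 9925, 9895 and 10477 at 8 h, at 30478, 30021 and 31678 at 136 h, at 18686, 19018 and 18160 at 152 h and at 22839, 22859 and 23436 at 168 h. The 136 h libraries were highest and those at 168 h of GCSF-OHT lowest, and the only groups to overlap were undifferentiated cells and 152 h. The change of Eif4b was -1.12 ± 0.05 at GCSF 0h (limma adjusted p = 2.01e-43) and -1.42 at 168 h of GCSF-OHT (adjusted p = 3.43e-53). From the middle to the late window of IL3-OHT it rose by 0.85 ± 0.02 (adjusted p = 1.82e-81), and from 136 to 152 h it fell by 0.72 (adjusted p = 1.07e-26).

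Eif4a1 and Eif4a2, paralogous helicases that both serve in the cap complex, peaked at different times in IL3 conditions. Eif4a1 was at 16773, 17476 and 17301 in undifferentiated cells, 23557, 22931 and 22894 at 8 h of IL3-OHT, 9090, 9670 and 8965 at 136 h, and 10072, 10559 and 10440 at 168 h. Eif4a2 was at 8347, 8803 and 9941 in undifferentiated cells, 11966, 13500 and 11604 at 136 h and 9623, 11138 and 11022 at 168 h. Eif4a1 thus peaked early and ended low, whereas Eif4a2 was highest late. On the log2 scale, the median ratio of Eif4a1 to Eif4a2 was 0.99 in undifferentiated cells, 1.56 at 8 h, -0.40 at 136 h and -0.08 at 168 h. It was 0.92 at 168 h of GCSF-OHT, where the change was -0.61 for Eif4a1 (limma adjusted p = 4.08e-20) and -0.60 for Eif4a2 (adjusted p = 4.42e-09). The change of Eif4a1 at 168 h of IL3-OHT was -0.73 ± 0.05 (adjusted p = 7.63e-25). That of Eif4a2 was 0.23 and was not called. Eif4a3, the helicase of the exon junction complex, was not called at either end.

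The scaffolds divided as well. Eif4g2, which lacks the part that binds eIF4E and supports initiation without the cap, was at 13297, 14191 and 14299 in undifferentiated cells, 17821, 18097 and 18449 at 8 h of IL3-OHT, 6580, 6730 and 5963 at 112 h and 7539, 8954 and 8216 at 168 h. The 4 groups did not overlap, and the change at 168 h was -0.76 ± 0.06 (limma adjusted p = 2.47e-20). Eif4g2 was at 11432, 12260 and 11919 at 168 h of GCSF-OHT, a change of -0.23 that was not called. Eif4g3 took the other direction in GCSF conditions, from 5081, 4930 and 4798 to 8381, 8309 and 8394 at 168 h, a rise of 0.76 ± 0.04 (adjusted p = 1.10e-33). Eif4g1, the main scaffold, changed by -0.40 at 168 h of GCSF-OHT and by -0.38 at 168 h of IL3-OHT, and neither was called.

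**Figure D3:**
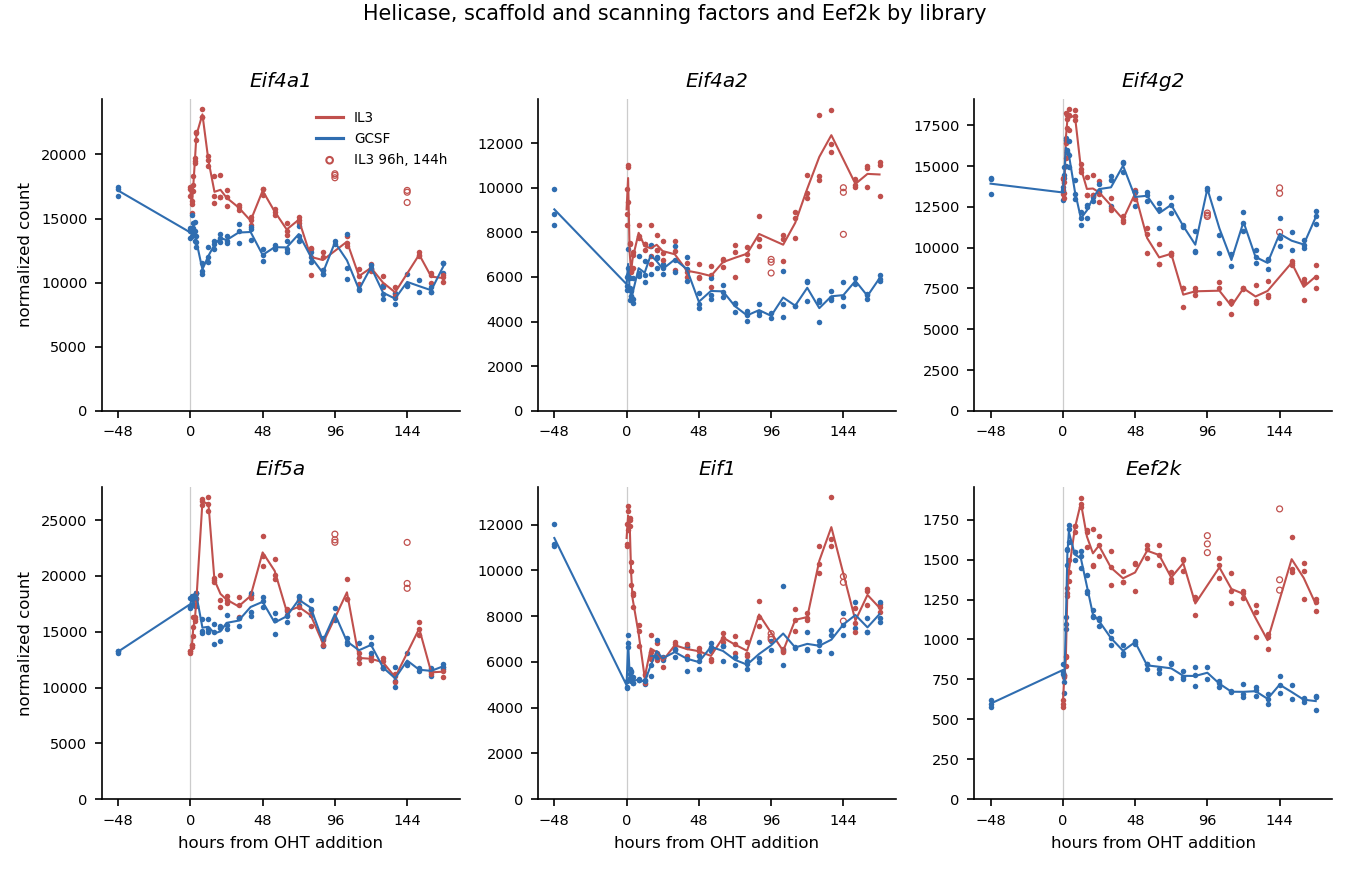
Normalized counts (y axis, from 0) of Eif4a1, Eif4a2, Eif4g2, Eif5a, Eif1 and Eef2k against time in h, with libraries as dots, means as lines, IL3 in red, GCSF in blue from 48 h before OHT, and the untested IL3-OHT libraries at 96 h and 144 h as open circles. Eif4a1, Eif4g2 and Eif5a peak near 8 h in IL3 and end low, Eif4a2 is highest at 136 h, and Eef2k rises in both conditions but stays high only in IL3.

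Among the cap-binding proteins Eif4e3 rose sharply in the neutrophil differentiation, whereas the canonical Eif4e did not. Eif4e3 is an atypical family member that binds the cap with lower affinity. Its gene (ENSMUSG00000093661, chr6:99625135-99666771, minus strand) was at 903, 920 and 897 in undifferentiated cells, 1795, 1748 and 1760 at GCSF 0h and 5430, 5787 and 5367 at 168 h of GCSF-OHT. At 168 h of IL3-OHT it was at 1013, 1077 and 1054. The groups were separate, and the last lay just above undifferentiated cells. The change of Eif4e3 was 0.96 ± 0.06 at GCSF 0h (limma adjusted p = 1.51e-30), 2.61 ± 0.06 at 168 h of GCSF-OHT (adjusted p = 4.86e-71), the largest of any member, and 0.21 at 168 h of IL3-OHT, which was not called.

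Most of the rise of Eif4e3 came late. After OHT it was at 1330, 1323 and 1399 at 4 h, stood at a mean of 1584 at 48 h and 2475 at 80 h, and reached 4296, 4110 and 4452 at 136 h. The late window of GCSF-OHT exceeded the middle window by 1.01 ± 0.02 (limma adjusted p = 5.03e-79). The IL3-OHT libraries in the tests lay between 674 and 1140 throughout.

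Eif4e was at 1630, 1690 and 1560 in undifferentiated cells and at 1201, 1184 and 1212 at 168 h of GCSF-OHT, a change of -0.44 that was below the size for a call. Per kilobase of merged exons, Eif4e3 went from 360.4 to 2198 while Eif4e went from 270.7 to 199.6. On the log2 scale of normalized counts, the median ratio of Eif4e3 to Eif4e moved from -0.85 in undifferentiated cells to 2.18 at 168 h of GCSF-OHT and to -0.36 at 168 h of IL3-OHT. Eif4e2, which competes for the cap without supporting initiation, fell by 0.64 at 168 h of GCSF-OHT, from 2045, 1930 and 2027 to 1241, 1325 and 1283.

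Eif4ebp1, the 4E-binding protein released by mTORC1, was lowered by GCSF pre-treatment and then rose and fell in steps. The gene (ENSMUSG00000031490) was at 3187, 3140 and 3031 in undifferentiated cells and at 1389, 1325 and 1347 at GCSF 0h, without overlap and with a change of -1.20 ± 0.10 (limma adjusted p = 9.89e-21). At 168 h of GCSF-OHT it was at 1975, 1767 and 1651, a change of -0.80 (adjusted p = 8.45e-12).

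In IL3 conditions Eif4ebp1 was at 2016, 2427 and 2239 at 8 h and at 4295, 3843 and 4415 at 12 h. It went from 3222, 3412 and 3562 at 72 h to 6121, 4701 and 4699 at 80 h. Later it went from 7816, 6698 and 7638 at 136 h to 4643, 4872 and 4646 at 152 h, before ending at 4106, 3508 and 3922. In each of these 3 jumps the libraries before and after did not overlap. The step from 8 to 12 h was 0.91 ± 0.10 (limma adjusted p = 3.09e-13). In GCSF conditions the same step went from 2275, 1682 and 1693 to 3639, 3599 and 2170, where 1 library at each time overlapped the other group. It was 0.71 ± 0.10 (adjusted p = 1.68e-08), but 0.52 without replicate 2, which removed the call. Eif4ebp1 was the only member with a called step from 8 to 12 h in GCSF conditions, against 2.25% of all genes called higher and 0.425% lower. It had 5 called steps in GCSF conditions in all, at 8 to 12 h, 72 to 80 h and 96 to 104 h upward and at 88 to 96 h and 160 to 168 h downward, more than any other member. The group at 96 h had 2 libraries, at 2002 and 1703.

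Eif4ebp2 changed little, from 5486, 5682 and 5330 in undifferentiated cells to 6954, 6959 and 7420 at 168 h of GCSF-OHT (0.37, not called). Eif4enif1, the transporter that carries eIF4E into the nucleus, rose there from 775, 782 and 833 to 1228, 1187 and 1251 (0.62, limma adjusted p = 2.37e-21), a call just above the size required. Eif4ebp3 was scarce, from 0 to 69.6 over all libraries and listed at 0 in 9 of them. Its call between the middle and the late window of IL3-OHT (0.91 ± 0.31, adjusted p = 0.00651) fell to 0.54 with edgeR, below the size for a call.

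**Figure D4:**
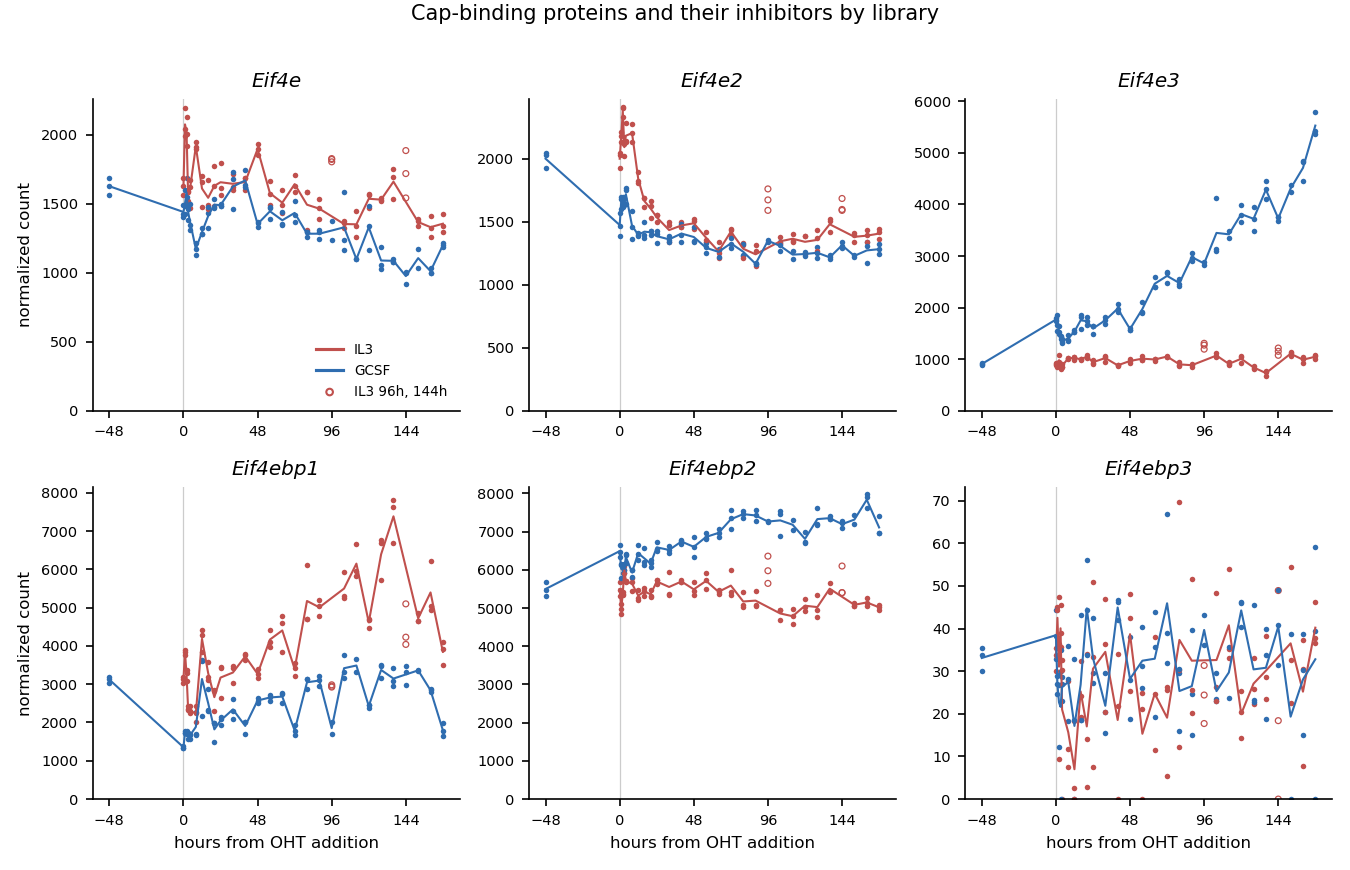
Normalized counts (y axis, from 0) of Eif4e, Eif4e2, Eif4e3, Eif4ebp1, Eif4ebp2 and Eif4ebp3 against time in h, drawn as dots for libraries and lines for means, with IL3 in red, GCSF in blue from 48 h before OHT and untested IL3-OHT libraries as open circles. Eif4e3 climbs from a mean of 906 to 5528 in GCSF alone, and Eif4ebp1 jumps between 8 and 12 h and between 72 and 80 h in both conditions.

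Eif5a, which relieves stalled ribosomes and carries the amino acid hypusine, was the third most abundant member by mean normalized count. It was at 13265, 13088 and 13293 in undifferentiated cells, 17166, 17207 and 18060 at GCSF 0h, 26347, 26889 and 26687 at 8 h of IL3-OHT, 11877, 10914 and 11467 at 168 h of IL3-OHT and 11704, 11881 and 12143 at 168 h of GCSF-OHT. Both end states lay below the start and overlapped each other, and the 8 h libraries were highest. Neither change from undifferentiated cells at 168 h was large enough for a call (-0.21 and -0.15). Eif6, which keeps the ribosomal subunits apart, went from 2843, 2790 and 2797 to 1815, 1763 and 1834 at 168 h of GCSF-OHT (-0.64).

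The enzymes that modify elongation factors did not move together. Eef2k, the inhibitory kinase of eEF2, was the only member higher at 168 h of IL3-OHT. It was at 598, 575 and 620 in undifferentiated cells, 1848, 1886 and 1831 at 12 h and 1251, 1177 and 1237 at 168 h of IL3-OHT, without overlap and with a change of 1.03 ± 0.06 at 168 h (limma adjusted p = 1.95e-32). In GCSF conditions Eef2k was at 846, 796 and 784 before OHT, 1068, 1138 and 1095 at 2 h of OHT, 1694, 1716 and 1612 at 4 h and, in the end, 646, 557 and 638 at 168 h, by which time it overlapped undifferentiated cells (0.04, adjusted p = 0.62). Eef2k was thus higher within hours of OHT in both conditions and remained so at 168 h in IL3, and the OHT effects, each from its own 0 h, differed by -1.43 at 168 h. Its substrate Eef2 was at a mean of 67432 at 8 h and 61106 at 16 h of IL3-OHT.

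Of the 6 methyltransferases, 2 were called at 168 h of IL3-OHT, against 15.2% of all genes lower, and 3 at 168 h of GCSF-OHT, against 23.6%, all lower. Eef1aknmt, a methyltransferase of eEF1A, was at 500, 498 and 499 in undifferentiated cells, 248, 260 and 285 at 1 h of IL3-OHT, and 783, 802 and 816 at 4 h. It went from 718, 797 and 718 at 8 h to 395, 389 and 356 at 12 h, and reached 211.9, 176.9 and 187.3 at 136 h. It therefore fell, overshot its starting level and fell again within 12 h, with a step of -0.97 between 8 and 12 h (limma adjusted p = 3.44e-15). At 168 h Eef1aknmt had changed by -0.77 in IL3-OHT and by -0.69 in GCSF-OHT cells. Eef1akmt4 went from 469, 458 and 445 at 8 h to 93.7, 93.3 and 104 at 128 h of IL3-OHT and was lower at 168 h of GCSF-OHT (-0.76).

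Eef1akmt1 was at 296, 227 and 260 at 8 h of IL3-OHT, 44.7, 47.3 and 53.8 at 136 h and 136.8, 125.7 and 117.9 at 152 h, and its 6 called steps in IL3 conditions were the most of any member. Its rise at GCSF 0h (0.61 ± 0.16, limma adjusted p = 5.73e-04) fell to 0.56 without replicate 1, below the size for a call. Eef1akmt3 was scarce, at 72.0, 68.5 and 50.8 in undifferentiated cells, 19.4, 28.3 and 13.0 at GCSF 0h, 39.2, 33.9 and 32.0 at 168 h of IL3-OHT and 18.7, 19.6 and 22.2 at 168 h of GCSF-OHT. Undifferentiated cells were highest without overlap. Its change at 168 h of IL3-OHT was -0.84 (adjusted p = 0.00537), but adjusted p reached 0.0645 without replicate 1 and 0.0563 without replicate 2, in a range from 0.00148 to 0.0645 over all alternatives. Eef1akmt2 and Eef2kmt were not called in any of the 3 comparisons with undifferentiated cells.

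The courses were next divided into an early (1 to 8 h), a middle (12 to 72 h) and a late window (80 to 168 h). In IL3 conditions 40 of 62 members (64.5%) had their highest mean in the early window, compared with 40.0% of all genes tested, and 33 (53.2%) had their lowest mean in the late window, compared with 33.8%. In GCSF conditions 37 members (59.7%) were highest early, compared with 31.8% of genes, and 49 (79%) were lowest late, compared with 39.7%. Early peaks and late minima were thus each more frequent among the members than among all genes in both conditions. They were counted separately, so the number of members with both is not given. Eef2 had neither in IL3, where its highest mean was at 128 h and its lowest at 16 h. Changes over time, tested over all time points of a condition jointly and requiring a departure of more than 0.58 from the start, were called for 37 members in IL3 conditions, against 69.7% of all genes, and for 28 in GCSF conditions, against 47.7%.

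Relative to undifferentiated cells, 2 members were higher in the early window of IL3-OHT, Eef2k (0.96) and Eef1akmt4 (0.60), against 4.44% of all genes, and none was lower, against 7.95%. In the middle window 2 were higher and 7 lower, against 11.4% and 18.4% of all genes. The 7 were Eef2 (-0.87), Eif1 (-0.83), Eif3f (-0.75), Eif3e (-0.70), Eef1akmt3 (-0.66), Eef1b2 (-0.63) and Eef1a1 (-0.59), and Eef2k (1.35) and Eef1akmt1 (0.97) were higher. In the late window 2 were higher and 10 lower, against 11.7% and 19.5%, and the lower members were now Eif1a (-1.03), Eef1aknmt (-1.02), Eif5 (-0.90), Eif4g2 (-0.90), Eif2b3 (-0.72), Eif4a1 (-0.64), Eif3j2 (-0.64), Eef1e1 (-0.64), Eif3j1 (-0.61) and Eef1akmt3 (-0.59). Of these, Eef1akmt3 alone had been lower in the middle window.

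From the middle to the late window of IL3-OHT 6 members rose, against 9.10% of all genes, and 4 fell, against 11.4%. Those that rose were Eif4ebp3 (0.91), Eif4b (0.85), Eif3f (0.80), Eef2 (0.72), Eif4ebp1 (0.60) and Eef1a1 (0.58). Those that fell were Eef1akmt1 (-1.14), Eef1akmt4 (-0.85), Eif4g2 (-0.70) and Eef1e1 (-0.65). The call of Eif4ebp1 was lost without replicate 1 (0.56).

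In GCSF conditions few members moved at first after OHT. Relative to GCSF 0h, 1 member was higher in the early window (Eef2k, 0.64), against 3.08% of all genes, and none was lower, against 1.01%. In the middle window Eif4ebp1 was higher (0.76) and Eef1aknmt lower (-0.59), against 7.61% and 4.40%. In the late window 2 were higher, Eif4ebp1 (1.12) and Eif4e3 (1.09), against 11.6%, and 8 were lower, against 12.1%, with Eef1aknmt (-1.10), Eef1akmt4 (-0.96) and Eif2b3 (-0.85) the farthest. From the middle to the late window Eif4e3 rose (1.01), against 3.94%, and 3 members fell, against 8.22%, namely Eef1akmt4 (-0.85), Eef1e1 (-0.64) and Eef2k (-0.60).

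Between consecutive time points 19 of 62 members (30.6%) had at least 1 called step among 25 in IL3 conditions, compared with 47.1% of all genes, and 6 (9.68%) had one among 27 in GCSF conditions, compared with 24.5%. Of these 6, Eif2b3 (112 to 120 h up, 120 to 128 h down) and Eif3j2 (120 to 128 h down) were called only at steps that touch 120 h. The names of the 120 h libraries begin differently from those of all other libraries, and the part of this was not tested. From 8 to 12 h in IL3 conditions Eif4ebp1 rose, against 3.81% of genes, and 4 members fell, against 2.50%, which were Eef1aknmt, Eif2b3, Eef1e1 and Eif3j1. From 72 to 80 h Eif4ebp1 rose, against 2.41%, and Eef1akmt1 (-0.92) and Eef1akmt4 (-0.63) fell, against 2.26%. The step with the most members was that from 136 to 152 h, across the time point left out of the tests and after fresh OHT had been added at 136 h, whose part was not tested. There 8 members fell, against 6.75% of all genes, namely Eif3e (-0.77), Eif4b (-0.72), Eef2 (-0.69), Eif2a (-0.69), Eif4ebp1 (-0.64), Eif3f (-0.62), Eif1 (-0.60) and Eif3g (-0.60), and 3 rose, against 9.22%, namely Eef1akmt1 (1.37), Eif4e3 (0.60) and Eef2k (0.59). Eef1a1, Eif3h and Eif4a2, which also had their highest IL3 mean at 136 h, were not called at this step.

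The 2 conditions were then compared directly over the 25 time points they share. In GCSF-OHT cells 15 members (24.2%) were lower than in IL3-OHT cells, against 15.1% of all genes, and 1 was higher, against 9.34%. All 6 tested elongation factors were lower, with a median of -0.76, as were 4 of 14 genes for eIF3 subunits. The values were -0.91 ± 0.01 for Eif4b (limma adjusted p = 4.63e-107), -0.89 ± 0.01 for Eef2 (adjusted p = 6.27e-90), -0.86 ± 0.01 for Eef1a1 (adjusted p = 1.01e-96), -0.85 for Eef1g (adjusted p = 3.28e-123) and -0.83 for Eif3e (adjusted p = 9.83e-81). The others were Eef1akmt3 (-0.88), Eif4ebp1 (-0.72), Eef1b2 (-0.66), Eif2a (-0.65), Eef1d (-0.61), Eif3h (-0.61), Eif3m (-0.60), Eif2s2 (-0.60), Eef1e1 (-0.59) and Eif3f (-0.58). Eif4e3 was higher by 1.30 ± 0.01 (adjusted p = 1.30e-114). The smallest of these changes lay near the size required, and without replicate 1 the calls of Eef1e1 (-0.57), Eif2s2 (-0.58) and Eif3f (-0.58) were lost, as was that of Eef1e1 without replicate 2 (-0.58). With edgeR 11 members in place of 15 were lower. Measured from the start of each condition, the effect of OHT was more positive in GCSF than in IL3 for 5 members over 12 to 72 h, against 15.8% of all genes, and more negative for 3, against 9.40%. The corresponding counts at 168 h were 6, against 14.5%, and 7, against 11.3%.

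**Figure D5:**
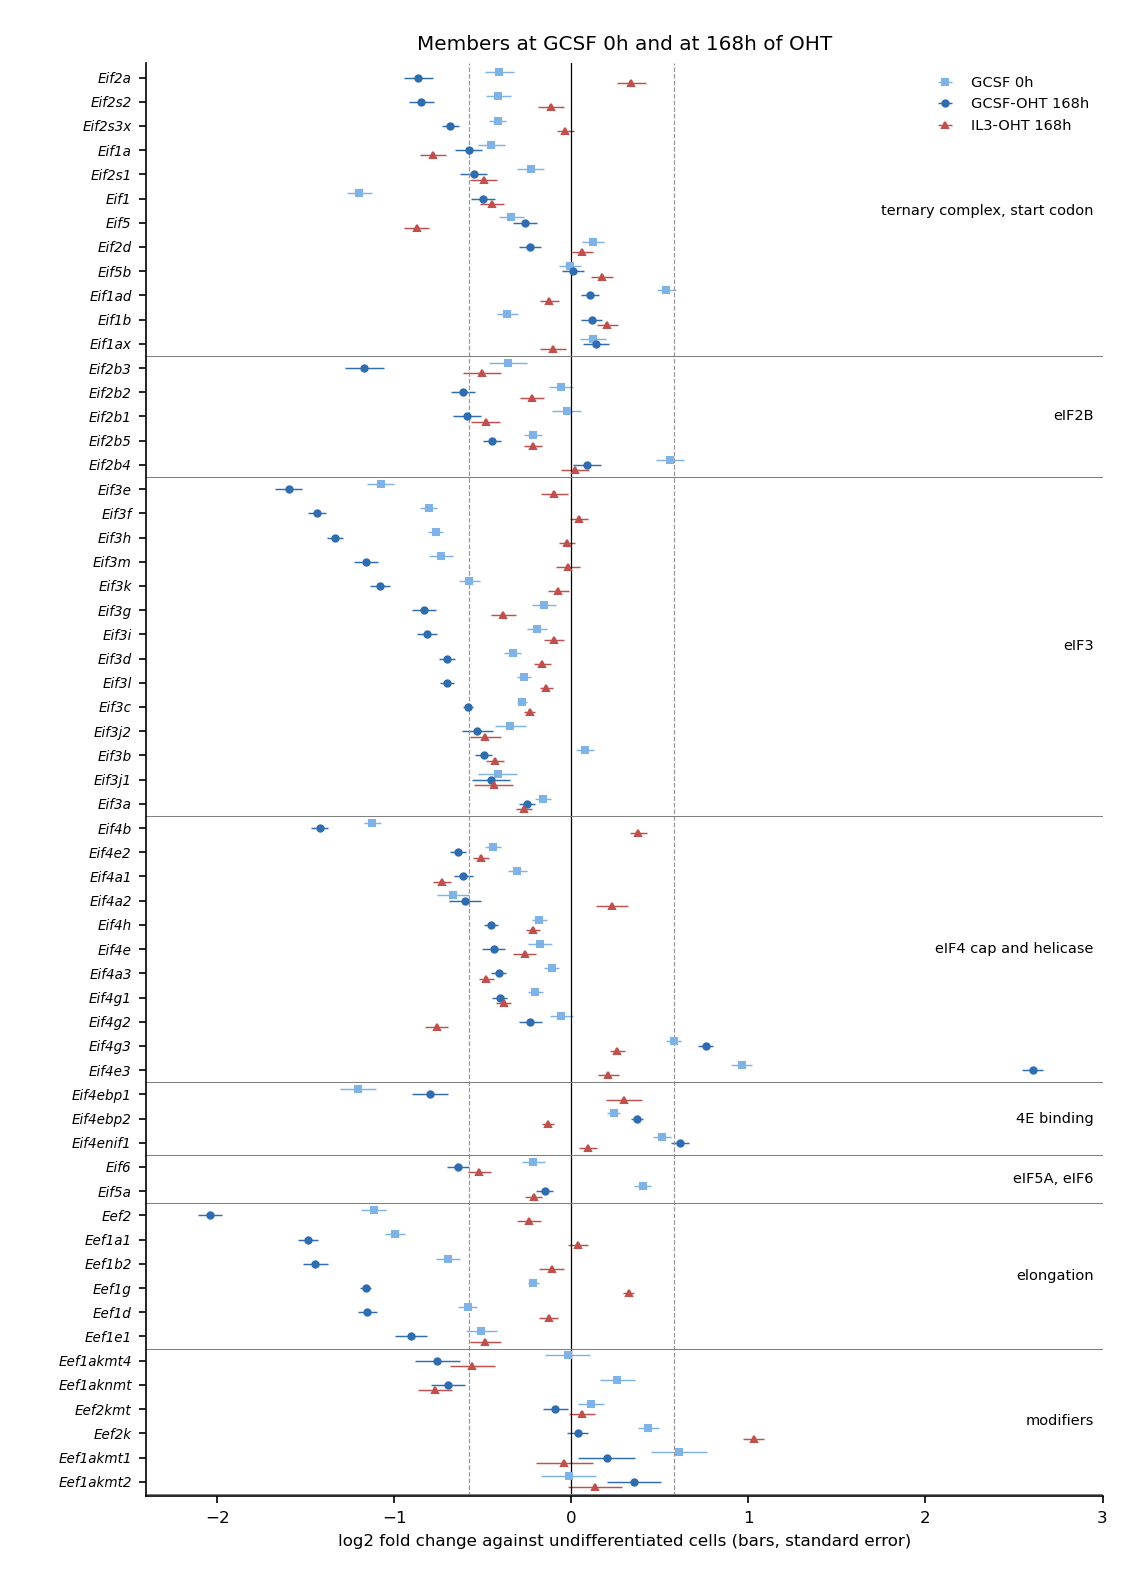
Change on the log2 scale (x axis) against undifferentiated cells at 168 h of IL3-OHT (red) and of GCSF-OHT (blue), grouped by role. Light blue squares give the change after GCSF pre-treatment without OHT. The rows are the 59 tested members whose normalized count averaged 100 or more. Standard errors are drawn as bars, and dashed lines stand at 0.58 in each direction. The 6 elongation factors lie left of the line in GCSF-OHT and within the lines in IL3-OHT, and Eif4e3 lies far to the right in GCSF-OHT at 2.61.

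The wider machinery gave a context for these values, and its lists were described by counts only. Of 84 tested ribosomal protein genes, 65 were lower at GCSF 0h (median -0.69), against 20.7% of all genes, and 75 at 168 h of GCSF-OHT (median -1.15), against 23.6%. At 168 h of IL3-OHT 1 was lower, against 15.2%, and 3 were higher, against 10.2% (median 0.12). From the middle to the late window of IL3-OHT 25 of 84 rose, against 9.10% of all genes, and 1 fell, against 11.4%. Of 32 other genes of translation and its control, 10 were lower and 3 higher at 168 h of GCSF-OHT (median -0.17), against 23.6% and 15.5% of all genes, and 2 were lower and 2 higher at 168 h of IL3-OHT, against 15.2% and 10.2%. Examples at 168 h of GCSF-OHT are the poly(A)-binding proteins Pabpc4 (-1.09) and Pabpc1 (-0.62), the release factor Etf1 (-0.81), the hypusination enzyme Dohh (-0.86), the mTORC1 activator Rheb (-0.67) and the eIF4E kinase Mknk1 (0.94). Ddit4, an inhibitor of mTORC1, was higher at both end states, by 2.15 in GCSF-OHT and 3.75 in IL3-OHT cells. Ppp1r15a, which directs dephosphorylation of eIF2 alpha, was lower in GCSF-OHT (-1.07) and higher in IL3-OHT cells (0.76).

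Likeness of courses was described by the Pearson correlation of log2 means over 54 time points, which share libraries, conditions and scaling and are therefore not independent. The median correlation between members was 0.34 over 1891 pairs. It was 0.83 among the 6 elongation factors (15 pairs), 0.71 among the eIF3 subunits (91 pairs), 0.44 among those of eIF2B (10 pairs) and 0.18 among the eIF4 members (55 pairs). The courses nearest to that of Eef2 were Eif3h (0.987), Eef1a1 (0.972), Eif3k (0.967), Eif3f (0.958), Eif4b (0.953), Eif3m (0.944), Eif3e (0.941) and Eef1b2 (0.929). Within eIF3 the correlation with Eef2 fell from these values through Eif3c (0.80), Eif3d (0.778), Eif3i (0.728), Eif3l (0.721) and Eif3g (0.643) to Eif3j1 (0.294), Eif3j2 (0.179), Eif3a (0.140) and Eif3b (0.122). The courses most contrary to Eef2 were Eif4enif1 (-0.937), Eif4g3 (-0.854), Eif4ebp2 (-0.851) and Eif4e3 (-0.812). Another set ran with Eif4a1, namely Eif2s1 (0.939), Eef1akmt4 (0.936), Eef1e1 (0.926) and Eif2b3 (0.912). Of 61 other members 13 exceeded 0.8 with Eef2 and 11 with Eif4a1.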

How the data were processed

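Each library held bulk RNA from PUER cells. Per the paper's methods and the labels, the authors quantified reads with Salmon on GRCm38 (mm10) and divided gene counts by DESeq2 size factors, so the deposited values are a signal, the normalized count; versions are not given in the sources used here. All non-zero values (100%) were whole multiples of 1 read in their library (relative tolerance 1e-06), so whole reads were recovered for alternatives and depths. A floor of 3 reads corresponds to 1.96 to 5.51 normalized counts, and such limits cover counting error only.

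Main test: limma 3.58.1 in R 4.3.3 on log2(normalized count + 1), with a mean for each condition and time point, an intensity trend, 159 of 165 libraries (IL3-OHT 96 h and 144 h were set aside, as in the study) and genes reaching 5 in at least 1 library. p-values were adjusted by Benjamini-Hochberg within each comparison. The study used DESeq2's Wald test on counts. Because the deposited unit is normalized, that test and edgeR's quasi-likelihood test (edgeR 4.0.16, DESeq2 1.42.0) served as alternatives on recovered reads, beside pseudocounts of 0.5 and 5, other filters, upper-quartile scaling, a replicate block, omission of each replicate number, and retention of the omitted time points. Scripts were tested on simulated data. Python 3.11.15, numpy 2.4.6, pandas 2.3.3 and matplotlib 3.10.9 were used for summaries.

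Members and lists were chosen with earlier results of these data known. Genes were named by rule: the 5 largest called changes in each direction of each main comparison, the most abundant member of each role, every member called between the cytokines, and paralogs of these. Other named members were chosen after their values were seen. Many time points given for single members hold their highest or lowest mean, so a lack of overlap between them follows in part from that choice. Promoters are from RefSeq (GRCm38.p6), which had a window for 50 members. Gene identifiers, coordinates and merged exon lengths are from the GENCODE annotation, which 65 members matched. No column of per-sample values was left unused.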

Additional observations from a re-analysis of the deposited data

Results flagged for a closer look

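Several members changed differently after OHT in the 2 cytokines, each measured from the start of its own condition. This was judged by a test of the difference itself (limma interaction, adjusted p under 0.05 and a difference over 0.58). OHT dose and pre-treatment cannot be told apart from the cytokine in these values, which are the effect in GCSF minus that in IL3 on the log2 scale. The differences over 12 to 72 h were positive for Eif1 (1.13), Eef1akmt3 (1.06), Eif3e (0.64), Eif3f (0.64) and Eif4ebp1 (0.59), and negative for Eef1akmt1 (-1.02), Eef2k (-1.0) and Eif5a (-0.65). At 168 h they were positive for Eif4e3 (1.44), Eif1 (1.15), Eif5 (0.95), Eef1akmt3 (0.89), Eif1a (0.65) and Eif4g2 (0.59), and negative for Eef2k (-1.43), Eef1g (-1.27), Eif2a (-0.80), Eef2 (-0.68), Eif4b (-0.67), Eif3f (-0.67) and Eef1b2 (-0.64). Eif3f had a positive difference in the middle window and a negative one at 168 h, and Eif1, Eef1akmt3 and Eef2k kept their sign.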

How the results depend on the processing

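Of 63 changes of named members, each computed under 12 alternatives, 737 of 756 values kept their direction and their side of the threshold, 19 fell below it and none changed direction. Of 284 alternative counts, 281 lay within 1.5 times the reported one. The exceptions were the members higher at GCSF 0h, 2 as reported, 4 with edgeR and 1 with upper-quartile scaling, and the members higher from 8 to 12 h in GCSF conditions, 0 to 1 when each replicate was omitted. The cause was not tested. The members lower at 168 h of GCSF-OHT numbered 31 as reported, 26 with edgeR, 32 with DESeq2, 34 with upper-quartile scaling and 30 to 33 without 1 replicate. Those lower in GCSF-OHT than in IL3-OHT cells numbered 15, 11 with edgeR and 18 with upper-quartile scaling. Calls lost but not given above were Eef2k between the middle and late windows of GCSF-OHT (-0.57) and Eef1akmt1 at GCSF 0h (0.54) and Eif4enif1 at 168 h of GCSF-OHT (0.56) with upper-quartile scaling, and Eif3m (-0.58), Eif3f (-0.56), Eif2s2 (-0.58) and Eef1e1 (-0.57) between the cytokines with edgeR. Replicate numbers were not taken as pairs in the main test, as same-numbered libraries correlated at only -0.27 to 0.09. With the replicate block the counts stood at 31 and 13 lower at 168 h of GCSF-OHT and at GCSF 0h, and no call changed. Every library correlated best with its own number between undifferentiated and IL3-OHT 168 h cells and between 8 and 12 h of GCSF-OHT, which is a hint from the data only. The count tests were not run for changes over time. At this depth Eef1akmt3, Eef1akmt1 and Eif4ebp3 are the least precise of the members named.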

Other observations

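The IL3-OHT libraries at 96 h and 144 h, which the study set aside, stood apart from their neighbours in the members too, and these values were not tested. Part of the medium had been replaced and fresh OHT added at 88 h and 136 h, before each of them. The part of this in the values below was not tested. At 96 h 35 of 62 members were above every library at 88 h and 104 h, and 8 were below, whereas 18.1% and 17.9% of all genes were. The median difference of the members was 0.21 on the log2 scale and that of all genes was 0.00. At 144 h 18 members were above and 6 below every library at 136 h and 152 h, whereas 11.5% and 12.4% of all genes were. The members farthest above at 96 h were Eef1akmt1 (1.20), Eif2b3 (1.17), Eef1akmt4 (1.10) and Eef1aknmt (1.06), and at 144 h their differences were 1.26, 0.82, 0.99 and 0.61. Eif4ebp1 (-0.83) and Eif2a (-0.66) were below at 96 h and again at 144 h (-0.41 and -0.87). The 4 that stood highest are among those whose level was highest at 4 to 8 h of IL3-OHT.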
